A study of Arabidopsis thaliana with 12 samples.

Results

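AT3G47650 of Arabidopsis thaliana encodes a DnaJ-type zinc finger protein of the chloroplast of the BSD2 type. It was followed on the 1 probe that the platform annotation pairs with this gene alone, out of 3439 probes on the array and 692 probes that name a single gene. No probe with several genes names it, so every value below comes from that 1 probe. The gene was chosen by its measured intensities, which were already known to be high in the psah2 mutant on these arrays, so its difference between the groups is given as a description with no test.

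BSD2 was first described in maize, where plants without it fail to accumulate Rubisco in the bundle sheath. The protein has the cysteine-rich zinc finger of DnaJ co-chaperones but no J-domain, and it works in the chloroplast stroma. It holds newly folded large subunits of Rubisco together until the small subunits take its place. Rubisco fixes carbon dioxide in the Calvin-Benson cycle, other steps of which use ATP and NADPH. Both depend on the thylakoid electron transport chain, of which photosystem I is the last complex.

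The wild type (WT) and the psah2 mutant, which lacks the photosystem I protein PSI-H2, are both of ecotype Columbia 0. PSI-H2 is one of the small proteins of that complex, and the labels name no other difference between the genotypes. Each genotype had 6 samples of total RNA, each on 1 array, with an intensity between 0 and 100 for every probe. No source used here gives the allele of psah2, nor the tissue, age or growth of the plants, and fewer cells of a type and less RNA per cell cannot be told apart. Whether samples of 1 genotype were separate plants is not stated either, so p-values cover only the spread between samples, part or all of which may be technical.

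The psah2 arrays were dimmer as a whole. The median intensity of an array lay between 0.304 and 0.379 in WT and between 0.0904 and 0.0995 in psah2, and the share of probes listed at 0 was 13.5% ± 0.3 on WT arrays against 21.3% ± 1.0 on psah2 arrays (SD, n = 6 each). The sum over all probes differed less, at 3241 ± 253 in WT and 2781 ± 126 in psah2. Of the markers chosen to check the tissue, only 2 of 5 for green leaf (LHCB1.5 and PRK) and none of 3 for root or 3 for seed had a probe of their own. LHCB1.5, a light-harvesting protein of photosystem II, had intensities of 12.2 ± 2.8 (WT) and 34.9 ± 5.9 (psah2; SD over 6 arrays).

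AT3G47650 was above 0 on all 12 arrays and was brighter on every psah2 array than on any WT array. In WT its deposited intensity was 1.2, 1.05, 0.855, 0.887, 0.772 and 0.785 on replicates 1 to 6. In psah2 it was 4.28, 3.51, 3.16, 3.65, 4.16 and 4.48. The lowest psah2 value was 2.62 times the highest WT value. The means were 0.926 ± 0.170 in WT and 3.87 ± 0.51 in psah2 (SD over 6 arrays), a ratio of 4.18.

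**Figure D1:**
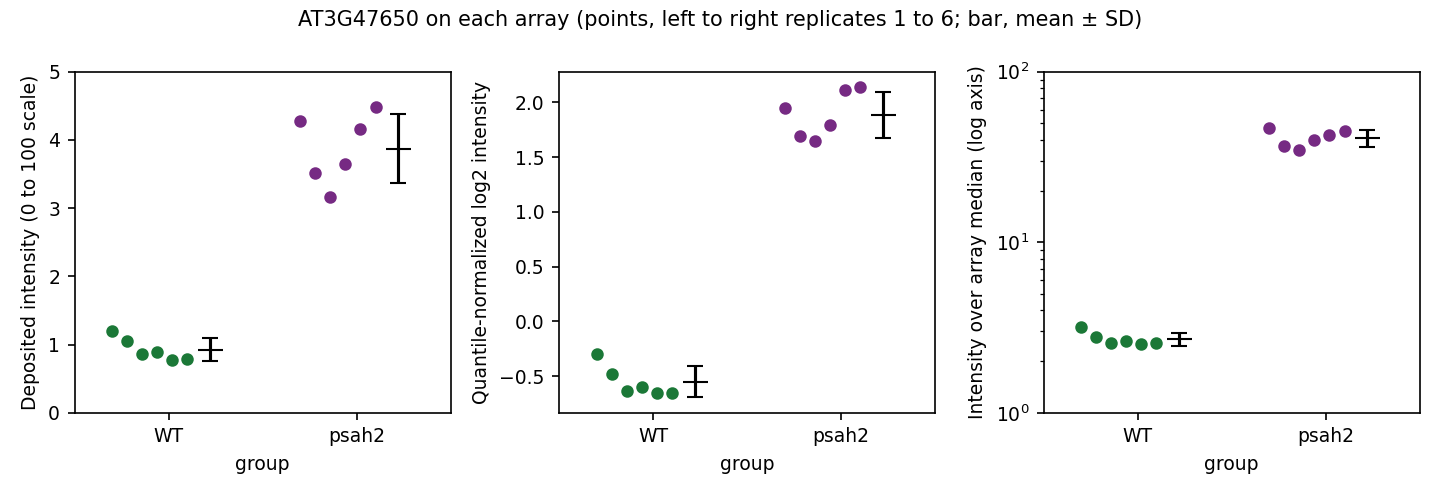
Deposited intensity (left), quantile-normalized log2 intensity (middle) and intensity divided by the array's own median (right, log axis) of AT3G47650 on 6 WT and 6 psah2 arrays. Each point is an array and the bars give the mean and SD; on each of the 3 scales the lowest psah2 array lies above the highest WT array.

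Within WT, replicates 1 and 2 were the highest for AT3G47650 and were also the arrays with the highest medians. Divided by the median of its own array, the intensity was between 2.54 and 3.18 in WT, with a median of 2.61. In psah2 the same ratio was between 34.9 and 46.7, with a median of 41.0. As a share of all signal on the array, the probe took 0.0284% ± 0.0030 in WT and 0.140% ± 0.022 in psah2 (SD over 6 arrays). The size of the difference thus ranged from 4.18 times in raw intensity and 4.93 times in share of signal to 15.1 times relative to the array median, which differed more between the groups than the sum did.

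Consecutive arrays of a group resembled each other, and the labels do not give their relation. Averaged over replicates 1 and 2, 3 and 4, and 5 and 6, AT3G47650 was at 1.13, 0.871 and 0.778 in WT. The same averages were 3.90, 3.40 and 4.32 in psah2. The groups did not overlap after averaging either, with means of 0.926 ± 0.181 and 3.87 ± 0.46 (SD, n = 3 each).

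The rank of a probe within its array does not depend on how arrays are scaled to each other. Among all 3439 probes, AT3G47650 ranked between 466 and 610 from the top on the WT arrays (median 590.5). On the psah2 arrays it ranked between 84 and 108 (median 96.5). It was brighter than 83.5% ± 1.6 of the probes in WT and 97.2% ± 0.3 in psah2 (SD over 6 arrays). Among the 692 single-gene probes its rank was 92 to 120 in WT and 16 to 23 in psah2. Ranks of intensity order the signals of different probes, which bind with different strength, and not the amounts of their transcripts.

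**Figure D2:**
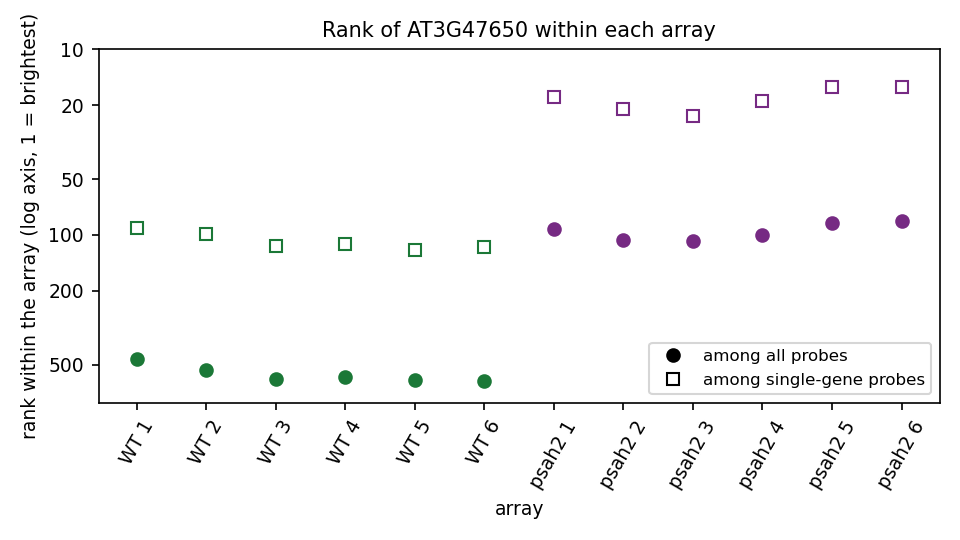
Rank of AT3G47650 within each array, counted from the brightest probe (log axis, 1 at the top), among all 3439 probes (filled circles) and among the 692 single-gene probes (open squares). The 6 psah2 arrays give ranks of 84 to 108 and of 16 to 23, and the 6 WT arrays ranks of 466 to 610 and of 92 to 120.

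To set the gene beside the other probes, arrays were quantile-normalized on the log2 scale and all probes were fitted together with limma. The log2 change of AT3G47650 (psah2 minus WT) was then 2.44 (SE 0.12, n = 6 each), which is 5.41-fold. With consecutive replicates averaged its SE was 0.19. On this scale its level was -0.55 ± 0.14 in WT and 1.89 ± 0.21 in psah2 (SD over 6 arrays). The change was the 10th largest rise of 525 tested single-gene probes and the 61st of all 2643 tested probes. For comparison, 25.2% of the tested probes were higher and 36.2% lower in psah2 at a Benjamini-Hochberg adjusted p below 0.05. Among single-gene probes 21.1% were higher and 41.3% lower, with a median log2 change of -0.41. With the values as deposited the split over all tested probes was 9.50% higher and 77.5% lower. With zeros set to a floor it was 28.3% and 23.8% of the same 2643 probes. In that setting all 3439 probes were tested, of which 765 were higher and 794 lower. The rule that chose the gene used this contrast, so nothing is read from its place in it.

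The size of the change depended on the scaling, and its direction did not in any scaling tried. It was 2.07 with the values as deposited, 2.35 with cyclic loess, 3.08 with arrays centred on their 75th percentile and 3.50 with arrays centred on their median, on the log2 scale. Against the median change of all tested probes in the same scaling, the gene lay 2.70 higher after quantile normalization, 2.47 higher after cyclic loess and 3.71 higher with the values as deposited or median-centred. In the deposited values only AT3G56010, nearly at 0 in WT, and PRK had a larger log2 change among the 525 single-gene probes, so that AT3G47650 ranked 3. The psah2 arrays lay wholly above the WT arrays in deposited intensity for 29 of these 525 probes (5.52%), and wholly below them for 384 (73.1%).

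**Figure D3:**
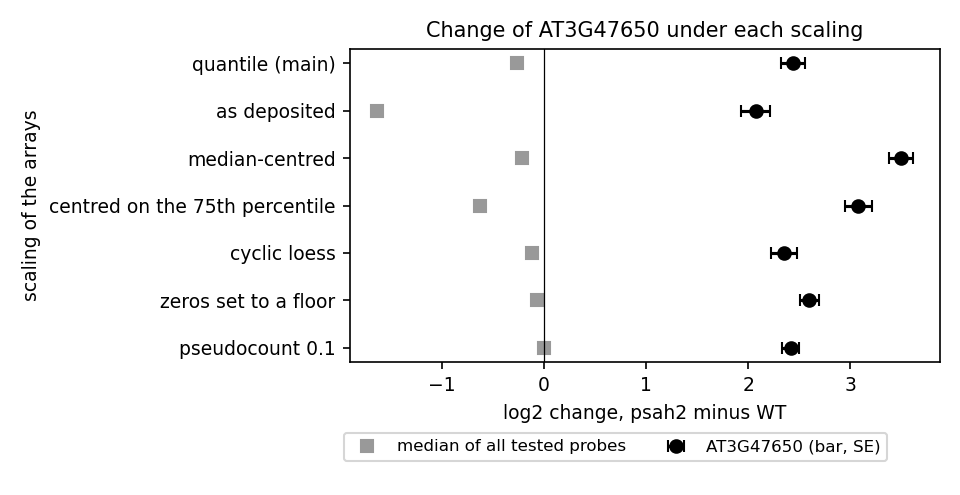
Log2 change of AT3G47650 (black circles, bars SE) and median log2 change of all tested probes (grey squares) under 7 ways of scaling or flooring the values. AT3G47650 runs from 2.07 as deposited to 3.50 median-centred, and the median of all probes from -1.64 as deposited to 0 with a pseudocount of 0.1.

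Most probes that were as bright as AT3G47650 in WT were lower in psah2 after quantile normalization. A window of 0.5 on either side of its WT log2 level, or intensities from 0.646 to 1.29, held 109 other tested single-gene probes. Their median intensity was 0.829 in WT and 0.240 in psah2, and their median log2 change after normalization was -0.87. Of the 109, 15 were higher (13.8%), 67 lower (61.5%) and 27 not called, beside 21.1% higher and 41.3% lower over all single-gene probes. With the values as deposited 8 were higher (7.34%) and 92 lower (84.4%), near the 7.24% and 81.5% of all single-gene probes in that scaling. With median-centred arrays 22 were higher (20.2%) and 48 lower (44.0%), beside 22.7% and 37.0% of all. Cyclic loess gave 16 higher (14.7%) and 55 lower (50.5%), beside 23.2% and 31% of all. With zeros set to a floor the shares were 14.7% and 49.5%, beside 23.2% and 27% of the 525 single-gene probes. The band was picked by WT level, which is part of the contrast, so nothing is read from these counts. None of the 109 reached the psah2 level of AT3G47650 or its log2 change, either as deposited or after normalization. This largely follows from the choice of a gene known to be high in psah2, so nothing is read from it. Divided by the median of these 109 probes on the same array, AT3G47650 was at 1.03 to 1.28 in WT, by the choice of the window, and at 11.9 to 20.9 in psah2.

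**Figure D4:**
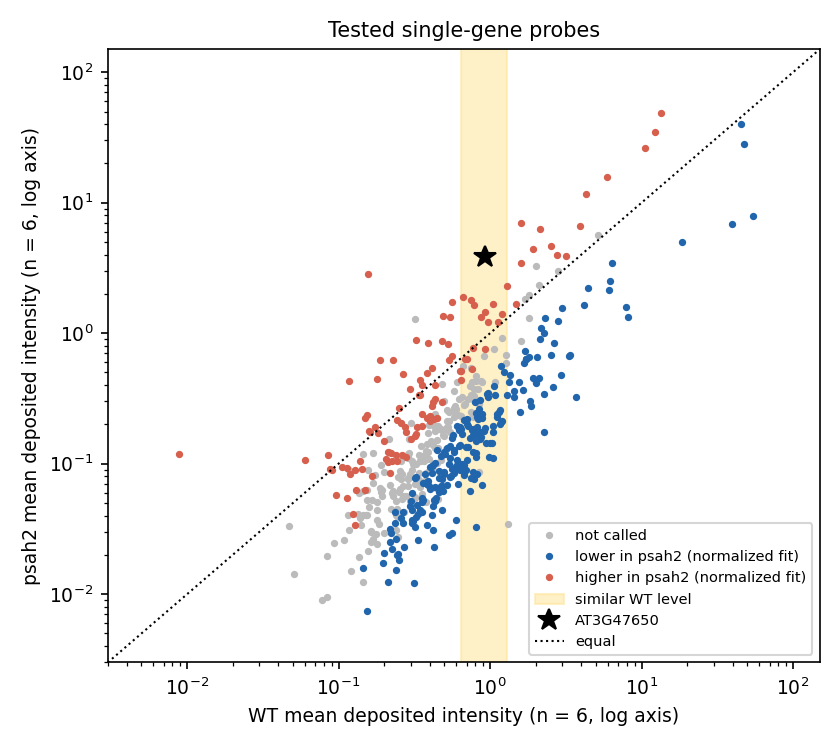
Mean deposited intensity in WT and in psah2 of the 525 tested single-gene probes (log axes), coloured by the call of the normalized fit, with the dotted line marking equal intensity and the shaded band the WT levels from 0.646 to 1.29. AT3G47650 (star, 0.926 in WT and 3.87 in psah2) stands above the other 109 probes of the band.

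Within the band, 5 other probes (4.59%, against 5.52% of all single-gene probes) had every psah2 array above every WT array as deposited, and 86 (78.9%) had every psah2 array below. The 5 are named here after a look at their values. AT3G09050 came nearest in change, from 0.664 ± 0.083 in WT to 1.90 ± 0.39 in psah2, a 4.33-fold rise after normalization (SD, n = 6 each; limma, adjusted p = 1.11e-08). With consecutive replicates averaged its limma adjusted p was 0.000764. ATSPS4F (AT4G10120), named as a sucrose phosphate synthase, an enzyme type of sucrose synthesis in the cytosol, came nearest in psah2 level. Its intensity ran from 1.09 to 1.51 on the WT arrays and from 1.96 to 2.66 on the psah2 arrays, and it rose 2.17-fold. AT1G33250 rose 3.48-fold, AT5G19540 3.24-fold and PRA1.B3 (AT5G05380), a prenylated RAB acceptor protein of membrane traffic, 2.21-fold. In a wider band of 1 on either side, with 204 other probes, PRK had the higher psah2 level and the larger deposited change, while none had a larger change after normalization; AT1G24040 came next at a log2 change of 2.31. When probes without a single gene were counted too, 3 of 517 others in the narrow band had a larger change, and they are not named here.

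Of the 20 single-gene probes nearest to AT3G47650 in WT level, 10 above and 10 below, 12 fell, 4 rose and 4 were not called. Thus 20% were higher and 60% lower, beside 21.1% and 41.3% of all single-gene probes. As deposited the shares were 15% and 80%, beside 7.24% and 81.5% of all. The median log2 change of the 20 after normalization was -0.89. These 20 were picked by their WT level, so nothing is read from the counts. All 20 had WT means between 0.874 and 1.04, and their psah2 means ran from 0.0692 to 1.46. The 4 rises were smaller than the change of AT3G47650, which largely follows from the choice of the gene. AT5G19210 rose 2.33-fold and AT1G69910 2.22-fold, while mTERF9 (AT5G55580), of the mTERF family that regulates organelle gene expression, rose 1.86-fold. AT4G16410 rose 1.34-fold after normalization, but its deposited mean was lower in psah2, at 0.751 against 0.929, and its call was lost with consecutive replicates averaged (adjusted p = 0.0997).

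The 12 falls among these neighbours ranged from 1.45-fold to 7.57-fold. AT2G32040 fell from 0.883 ± 0.153 to 0.0692 ± 0.0655 (SD, n = 6 each; limma, adjusted p = 0.000515) and AT5G26850 from 0.988 ± 0.125 to 0.112 ± 0.037 (4.18-fold). With consecutive replicates averaged the limma adjusted p of AT2G32040 was 0.0159. AT3G32930 fell 3.20-fold, AT3G04500 3.17-fold, AT2G04790 2.59-fold, AT1G21500 2.56-fold and AT3G57120 2.38-fold. AT1G70200, AT2G21720, AT3G57570, AT5G27860 and AT3G54550 fell between 1.45-fold and 1.88-fold. With median-centred arrays 5 of the 20 neighbours were higher and 8 lower (25% and 40%, beside 22.7% and 37% of all single-gene probes). In that scaling the calls of AT2G21720, AT3G57570, AT5G27860 and AT3G54550 were lost. With consecutive replicates averaged, those of AT3G54550 (adjusted p = 0.0719) and AT5G27860 (0.0511) were lost. The call of AT3G57570 (adjusted p = 0.0360) was also lost with arrays centred on their 75th percentile (0.0700), cyclic loess (0.165), zeros set to a floor (0.106) or a pseudocount of 0.1 (0.0892), and without any 1 of WT replicates 2 to 6 or psah2 replicates 1 and 2 (adjusted p from 0.0517 to 0.0704).

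The 4 neighbours that were not called differed in spread. AT2G31920 had tight values in both groups and a log2 change of -0.11 (SE 0.10), but was called lower as deposited (adjusted p = 3.33e-06) and higher with median-centred arrays (0.00388). AT3G24190 ran from 0.0976 to 2.51 across the psah2 arrays, AT4G24930 from 0.0882 to 1.74, and AT1G01730 from 0 to 0.685. AT1G01730 was fitted on the 5 psah2 arrays above 0, and it was called lower without psah2 replicate 1 (adjusted p = 0.00457), 5 (0.0337) or 6 (0.0492), as deposited (0.00187) and with array weights (0.0230). AT4G24930 was called lower without psah2 replicate 6 (adjusted p = 4.01e-05), as deposited (0.00650) and with array weights (0.0329).

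**Figure D5:**
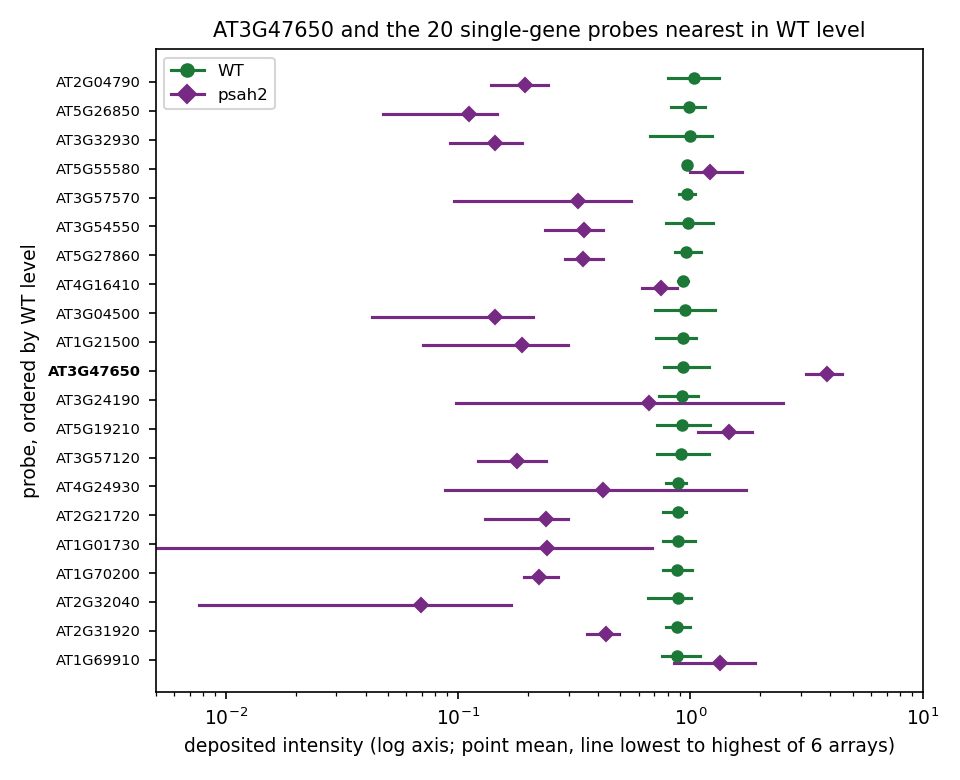
Deposited intensity (log axis) of AT3G47650 and the 20 single-gene probes nearest to it in WT level, ordered by that level; circles are WT means, diamonds psah2 means and lines run from the lowest to the highest of 6 arrays (for AT1G01730, at 0 on 1 psah2 array, the line runs off the axis). AT3G47650, at 3.16 to 4.48 in psah2, lies to the right of all 20 neighbours, whose highest single value is 2.51.

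Probes as bright as AT3G47650 in psah2 had been brighter than it in WT. This largely restates the contrast that chose the gene, and nothing is read from it. Ordered by mean log2 intensity, AT3G47650 was 103 of 525 in WT and 19 in psah2, and all 18 probes above it in psah2 were above it in WT too. It climbed 84 places, and 103 of the 525 probes climbed more places. The 10 nearest probes on each side in psah2 all had higher WT levels. Of these 20, 9 rose, 6 fell and 5 were not called (45% higher and 30% lower, beside 21.1% and 41.3% of all single-gene probes). With median-centred arrays 16 were higher and 1 lower, beside 22.7% and 37% of all. These 20 were picked by their psah2 level, so nothing is read from the counts. Among the 422 probes dimmer than AT3G47650 in WT, the brightest in psah2 was AT3G09050, at rank 30. Genes next to it in the psah2 order, named after their values were seen, came from both directions. PSBY (AT1G67740), a small photosystem II protein, stood at 2.15 ± 0.38 in WT and 6.29 ± 1.03 in psah2, and RAP74 (AT4G12610), a general transcription initiation factor subunit, at 2.54 ± 0.53 and 4.69 ± 0.37. NdhS (AT4G23890), a subunit of the chloroplast NADH dehydrogenase-like complex, stood at 6.11 ± 0.79 and 2.13 ± 0.31 (SD, n = 6 each) and fell 3.10-fold after normalization, a call that was lost with median-centred arrays (adjusted p = 0.508).

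Across the WT arrays AT3G47650 varied less than most probes of similar WT level. The SD of its normalized log2 values there was 0.14, against a median of 0.20 for the 109 probes of the band, 81 of which had a larger SD. In psah2 its SD was 0.21, and the 109 probes are no comparison there, since their median intensity was 0.240 against 3.87.

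Likeness to AT3G47650 was measured on what the group difference leaves, as the Pearson correlation of deviations from the group means over the 12 arrays among 421 single-gene probes without zeros. It is a description, since the 12 arrays share their scaling and consecutive arrays resembled each other. The correlations ran from -0.89 to 0.89 with a median of 0.04. The 5 most alike were AT3G59980 (r = 0.89), AT1G07970 (0.83), AT5G42680 (0.79), AT5G38360 (0.79) and AT3G09250 (0.78). For AT3G59980 r was 0.94 within WT and 0.92 within psah2, while for AT5G42680 it was -0.17 within WT and 0.99 within psah2.

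Of these 5 probes, 4 fell in psah2 and 1 rose, where 41.3% of all single-gene probes were lower and 21.1% higher. So few probes give no direction, and AT1G07970 turned to a rise with median-centred arrays (log2 change 0.62). AT3G59980 fell from 1.17 ± 0.33 to 0.200 ± 0.038 and AT3G09250 from 1.05 ± 0.19 to 0.110 ± 0.044 (SD, n = 6 each), 2.95-fold and 4.44-fold after normalization. AT5G42680 fell 3.27-fold and AT1G07970 1.54-fold. AT5G38360, one of the brightest single-gene probes, rose from 13.5 ± 2.3 to 49.1 ± 7.3 (SD, n = 6 each), 2.21-fold after normalization. Of the 5, 2 were also among the 5 most alike in the deposited values, and 2 in the median-centred values.

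The other genes of Rubisco assembly, the Calvin-Benson cycle, the plastid chaperones and the DnaJ family were hardly covered. Of 66 listed genes besides AT3G47650, 5 had a probe of their own and 3 could be tested, of which 1 rose, 1 fell and 1 was not called. The median log2 change of the 3 was -0.10 against -0.26 over all tested probes, and 3 genes do not describe these pathways. A further 5 listed genes appear only on probes with several genes. No probe of its own was paired with a Rubisco subunit or Rubisco activase, and none of the other 5 DnaJ-type zinc finger proteins had one. None of the 20 protein-coding genes that surround AT3G47650 on chromosome 3 had one either.

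Among the folding genes, 1 of 2 tested subunits of the plastid chaperonin fell, where 41.3% of all single-gene probes were lower. The chaperonin encloses newly made proteins, Rubisco large subunits among them, while they fold. Cpn60beta4 (AT1G26230), a subunit that in Arabidopsis serves the folding of an NADH dehydrogenase-like complex protein, had a lowest, median and highest intensity of 0.299, 0.329 and 0.383 in WT and of 0.0147, 0.0442 and 0.0565 in psah2. As deposited, every psah2 array lay below every WT array, as for the other tested subunit and for 73.1% of all single-gene probes. Cpn60beta4 fell 2.53-fold after normalization (log2 change -1.34, SE 0.27, limma, adjusted p = 0.000973). With consecutive replicates averaged its limma adjusted p was 0.00815. Cpn60beta3 (AT5G56500), another subunit of the chaperonin, had intensities of 0.462 ± 0.133 (WT) and 0.186 ± 0.123 (psah2; SD over 6 arrays). Its values were split within both groups. In WT it was at 0.637 and 0.627 on replicates 1 and 2 and at 0.347 to 0.402 on the others. In psah2 it was at 0.345 and 0.343 on replicates 2 and 5, barely below the lowest WT value, and at 0.0909 to 0.117 on the others. Its normalized log2 change was -0.10 (SE 0.32), and it passed the test only with the values as deposited (log2 change -1.51, adjusted p = 0.00211), where the median of all probes was -1.64. AT5G55220, on the plastid chaperone list, was listed at 0 on all 12 arrays.

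In the Calvin-Benson cycle, PRK (AT1G32060) makes ribulose bisphosphate, the substrate of Rubisco. Its lowest, median and highest intensities were 1.45, 1.57 and 1.81 in WT and 6.10, 6.87 and 7.83 in psah2. As deposited, every psah2 array lay above every WT array, which held for 5.52% of single-gene probes. PRK rose 4.38-fold after normalization (log2 change 2.13, SE 0.12, limma, adjusted p = 2.67e-08). With consecutive replicates averaged its limma adjusted p was 0.000856. Setting AT3G47650 against PRK within each array cancels any constant scale of that array. In the deposited values the log2 ratio of AT3G47650 to PRK was -0.80 ± 0.29 in WT and -0.85 ± 0.29 in psah2 (SD over 6 arrays). The ratio thus differed by -0.06 with an SE of 0.17, less than its spread between arrays. Quantile normalization does not apply a constant scale, and after it the log2 changes were 2.44 for AT3G47650 and 2.13 for PRK. SBPASE (AT3G55800), another enzyme of the cycle, was listed at 0 on all WT arrays and on 4 psah2 arrays.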

How the data were processed

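The deposited table holds 1 intensity per probe and array on a linear scale; neither the labels nor the table say how the authors corrected and scaled it. Groups and replicate numbers come from the sample titles. Genes come from the platform annotation: 692 probes name 1 gene, 870 several and 1877 none; 691 of the 692 matched a locus of RefSeq TAIR10.1. Names were not checked against probe sequences, and no coordinates are given.

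Values above 0 were log2-transformed, values at 0 left missing, and arrays quantile-normalized, which removes any true difference in total signal. Probes with at least 4 values in each group (2643) entered a 2-sided limma test (version 3.58.1, R 4.3.3; lmFit, eBayes), called at a Benjamini-Hochberg adjusted p below 0.05. The fit was tried on simulated independent arrays with the WT spread in both groups and no zeros. That setting is simpler than these data, so it does not show how the fit performs on them. Fold changes are normalized; intensities are deposited ones.

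The gene and the lists were chosen with earlier results of these data known. Named are listed genes with their own probe, the 10 probes nearest on each side in WT level, and the 5 most alike; others were named after their values were seen. RefSeq gave no product names, so DnaJ genes were sought in symbols and synonyms. The arrays' number limits precision. Alternatives were other scalings, floors and filters, array weights, averaged consecutive replicates, a replicate block and each array left out.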

Additional observations from a re-analysis of the deposited data

Results flagged for a closer look

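A gap test for 1 array standing apart was applied to 78 groups of arrays, those of AT3G47650 and of the other genes named; by chance it marks about 1 in 20 groups. It marked 3 groups and neither group of AT3G47650. For AT4G24930, psah2 replicate 6 stood above the other 5 arrays (gap over range 0.706, normalized log2 intensity 1.01 against a mean of -2.03), and without that array the gene was called lower (log2 change -1.40). For Cpn60beta4 (AT1G26230), psah2 replicate 6 stood below them (0.643, -4.98 against -3.46). For PSBY (AT1G67740), psah2 replicate 1 stood above them (0.653, 2.83 against 2.47).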

How the results depend on the processing

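The log2 change of AT3G47650 was 2.44 and moved by over 1 SD in 3 alternatives, the values as deposited (2.07) and arrays centred on their median (3.50) or 75th percentile (3.08); leaving out 1 array gave 2.35 to 2.53. Its rank of change among single-gene probes was 10, and became 3 in each of those 3 scalings, 16 with consecutive replicates averaged, 57 with zeros set to a floor, where 692 probes entered, and 1 with a pseudocount of 0.1; without 1 array it was 8 to 10. Its place by change within the band of similar WT level was 1, and 4 when all tested probes were counted. Of the 5 probes most alike, 2 stayed with the deposited values, 2 with median-centred values and 0 when group means were kept. With the values as deposited, 251 probes were higher and 2049 lower, against 667 and 958, and 2 listed genes were lower instead of 1; the higher share was then 10.9% of the calls instead of 41.0%. With the replicate number as a block the change of AT3G47650 was 2.44 (SE 0.13), and 654 probes were higher and 938 lower. No call of a named gene changed with the block. Averaging consecutive replicates gave an SE of 0.19, and 545 of 2824 tested probes were higher and 730 lower. Residuals of same-numbered arrays correlated between 0.05 and 0.16, over 0.1 for 5 of 6 numbers, and those of differently numbered arrays of the 2 groups reached 0.06. This is a hint from the data that the numbers pair the samples, but the labels state no pairing and the rule used here asked for over 0.1 in all 6, so the block was kept as an alternative. Signs turned, in log2 change, for AT4G16410 as deposited (-0.32), for AT1G07970 with median (0.62) and 75th percentile centring (0.19), for AT2G31920 with median centring (0.41), cyclic loess (0.0033), a floor (0.025) and a pseudocount (0.022), and for Cpn60beta3 (AT5G56500) with cyclic loess (0.099), a floor (0.090), a pseudocount (0.086), array weights (0.034) and without psah2 replicate 1 (0.029), in a range of -0.30 to 0.029 over the 12 arrays left out. The cause was not tested, beyond the shift of the median of all probes to -1.64 as deposited.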
